A study of Danio rerio with 4 samples.

Results

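The bile acid synthesis and feedback genes of the zebrafish were followed in *grwd1* crispants and wt larvae. The set was defined by 10 gene names: *cyp7a1* and *cyp8b1* (synthesis), *baat* (conjugation), *nr1h4*, *nr0b2* and *fgf19* (sensing and feedback), and *abcb11a*, *abcb11b*, *slc10a1* and *slc10a2* (transport). Copies with or without a final letter were counted. Of these names, 9 matched an entry of the count table and gave 12 genes out of 32520, while *baat* was not analysed here. The set was chosen by name after the crispant-over-wt values of these same libraries had been measured. The levels and fold changes of its genes are therefore given as a description. Where test calls of its genes are counted, nothing is read from them.

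The data are RNA-seq counts of whole 8 dpf larvae, from 2 *grwd1* crispant libraries and 2 wt libraries, and 15 larvae were pooled per group. The crispants were injected at the one-cell stage with Cas9 mRNA and both guide RNAs against *grwd1*, which encodes a WD40 repeat protein of large ribosomal subunit assembly, and the study asked which transcripts change when it is deficient. They are first-generation mosaic animals, so cells of a pool can differ in their edits. The share of edited cells was not measured here. The wt larvae carried no stated edit, and both groups were raised in E3 buffer. No source states whether replicates were made from different pools. The p-values therefore reflect only how far these libraries differ, and that spread may be technical.

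The guides that made the crispants are shown because every comparison rests on them. They target the first and the last exon of *grwd1* and are 20 bases long, written 5′ to 3′.
gRNA1: gatacatgcggtaagcggag
gRNA2: actccaccgacagatcccat
The transcript they target was reduced. *grwd1* (ENSDARG00000004806) had 123 and 102 counts in crispant libraries, against 390 and 439 counts in wt libraries. This was 26.0% of the wt level after scaling.

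Bile salts are made from cholesterol in hepatocytes, secreted across the canalicular membrane into bile, used in the intestine to disperse fat, and taken back up in its distal part. In mammals the nuclear receptor FXR, encoded by *nr1h4*, senses bile acids. It induces the corepressor SHP (*nr0b2*) in the liver and the hormone FGF19 in the ileum, which acts on hepatocytes through FGFR4 and the coreceptor beta-Klotho, and both arms lower transcription of the synthesis enzyme CYP7A1. Cyprinid fish such as the zebrafish carry much of their bile salt as sulfated bile alcohols rather than as amidated bile acids.

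The libraries held 18510962 and 15916216 counts in crispants, against 16086482 and 18619802 counts in wt. Replicates were not identical libraries: the chi-square of their counts per degree of freedom was 5.00 in crispants and 4.47 in wt. Levels are given as CPM, counts scaled to a common library size after TMM normalization, and log2 fold changes are crispants over wt with their standard error. CPM is not corrected for transcript length, so levels were not compared between genes. Of all genes, 20479 passed the low-count filter and were tested. A gene is said to have passed where edgeR's quasi-likelihood test gave an adjusted p of 0.05 or less. Across all genes tested, 8.98% passed with a higher level in crispants and 7.44% with a lower one. Both crispant libraries lay above both wt libraries in 28.1% of them and below in 26.5%.

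Within the bile acid set, the transcripts of the repressor *nr0b2*, of both copies of the bile salt export pump and of the ileal bile salt transporter *slc10a2* were higher in crispants by 1.74 to 7.69 fold. The synthesis enzymes *cyp7a1* and *cyp8b1* differed by 1.13 and 1.35 fold, and *fgf19* and *slc10a1* overlapped between the groups. In all, 9 of the 12 genes were above the count filter and 3 under it. Of the 9, *cyp7a1*, *nr1h4*, *fgf19* and *slc10a1* lay above an edgeR adjusted p of 0.05. The other 5 lay at 0.05 or less with a higher level in crispants, beside 8.98% of all genes. With DESeq2 this count was 4, as *cyp8b1* had a DESeq2 adjusted p of 0.17, beside 1107 of all 20479 genes. DESeq2 was fitted without the count filter, and genes it gave no adjusted p, such as *slc10a1*, count as not passed. In 7 of the 9 both crispant libraries lay above both wt libraries, beside 28.1% of all genes. The set was selected on this contrast, so these counts follow from the selection and nothing is read from them. The 9 log2 fold changes had a median of 0.59 and ran from -0.21 to 2.94, beside a median of 0.0046 over all genes tested. In whole-larva RNA, fewer cells of a type and less RNA per cell cannot be told apart, and the same holds for more cells and more RNA.

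**Figure D1:**
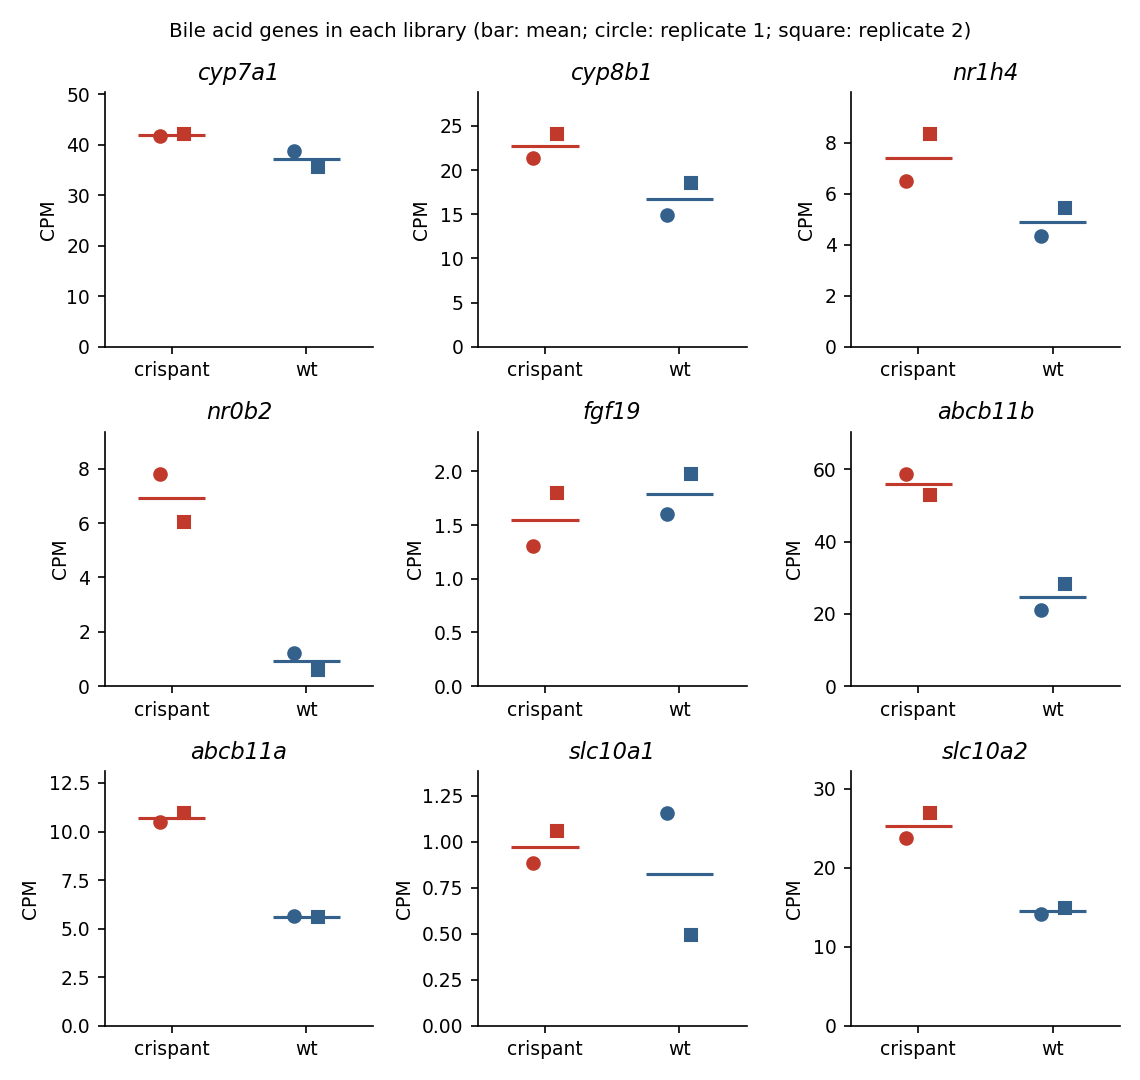
Levels of the 9 bile acid genes above the count filter, in CPM on linear axes from 0, with crispant libraries in red and wt libraries in blue. Circles are replicate 1, squares are replicate 2 and bars are means of 2 libraries. The groups are apart in 7 panels and overlap in those of *fgf19* and *slc10a1*.

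The enzymes that shape the bile salt are *cyp7a1*, which starts the classical route by 7-alpha-hydroxylation of cholesterol, and *cyp8b1*, the sterol 12-alpha-hydroxylase. *cyp7a1* (ENSDARG00000069018) stood at 41.7 and 42.1 CPM in crispant libraries, against 38.8 and 35.6 CPM in wt libraries. The groups did not overlap, but the gap between them was small, with means of 41.9 ± 0.271 CPM in crispants and 37.2 ± 2.29 CPM in wt (SD, n = 2 each). The log2 fold change of *cyp7a1* was 0.17 (standard error 0.11), and it lay between 0.11 and 0.25 under the other ways of processing.

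*cyp8b1* is annotated as 3 copies, which stand next to each other on 1 chromosome in RefSeq's annotation of the assembly GRCz12tu, with 0 protein-coding genes between them. The copy that held nearly all of the counts (ENSDARG00000053068) had 411 and 387 counts in crispant libraries, against 233 and 338 counts in wt libraries. Scaled, *cyp8b1* stood at 21.39 and 24.04 CPM in crispants, against 14.92 and 18.55 CPM in wt, a log2 fold change of 0.44 (standard error 0.15). All 4 libraries kept the groups apart, though the wt libraries lay further from each other than the crispant libraries did. Without crispant replicate 2 the log2 fold change of *cyp8b1* was 0.34, and without wt replicate 1 it was 0.29. The size of the *cyp8b1* difference thus leaned on both of these libraries.

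The other *cyp8b1* copies had few counts. ENSDARG00000097556 had 4 and 9 counts in crispant libraries, against 4 and 9 counts in wt libraries. ENSDARG00000097559 had 2 and 6 counts in crispants, against 1 and 2 counts in wt. Neither was above the count filter. Reads of similar copies may be shared among them, so the split between the copies is uncertain. Summed over the 3 copies, *cyp8b1* had 417 and 402 counts in crispants, against 238 and 349 counts in wt, nearly the numbers of ENSDARG00000053068 alone.

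Among the sensing genes, *nr0b2* (ENSDARG00000044685) had the largest fold change of the set. SHP, its product, has no DNA-binding domain and represses other nuclear receptors, among them the activators of CYP7A1 in mammals. It had 150 and 97 counts in crispant libraries, against 19 and 11 counts in wt libraries. In CPM, *nr0b2* stood at 7.81 and 6.03 in crispants, against 1.22 and 0.604 in wt. The lowest crispant library lay well above the highest wt library. The log2 fold change was 2.94 (standard error 0.39), or 7.69 fold. Its size leaned on the low wt counts: *nr0b2* changed by 3.50 without wt replicate 1 and by 2.50 without wt replicate 2, the widest span of its alternatives.

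The second copy, *nr0b2b* (ENSDARG00000102756), had 0 counts in all 4 libraries. A count of 0 allows up to 3 counts, which is 0.156 and 0.186 CPM in crispant libraries and 0.192 and 0.165 CPM in wt libraries, for counting error only. How reads shared by similar copies were counted is not known, so an exact 0 need not mean that this copy was silent.

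The bile acid receptor gene *nr1h4* (ENSDARG00000057741) stood at 6.50 and 8.33 CPM in crispant libraries, against 4.36 and 5.43 CPM in wt libraries. The groups of *nr1h4* did not overlap, as in 28.1% of all genes tested for this direction. Means were 7.42 ± 1.29 CPM in crispants and 4.90 ± 0.763 CPM in wt (SD, n = 2 each). The log2 fold change was 0.59 (standard error 0.27). Leaving out 1 library at a time moved it between 0.40 and 0.76.

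*fgf19* (ENSDARG00000098663), the hormone of the intestinal feedback arm in mammals, had 25 and 29 counts in crispant libraries, against 25 and 36 counts in wt libraries. These are 1.301 and 1.802 CPM in crispants, against 1.601 and 1.976 CPM in wt. The groups of *fgf19* overlapped, and the log2 fold change of -0.21 had a standard error of 0.53. With so few counts the value was within the spread between libraries, and it was 0.01 without crispant replicate 1.

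Of the transporters, the bile salt export pump moves bile salts out of hepatocytes into bile and has a pair of copies in zebrafish. The copy *abcb11b* (ENSDARG00000070078), which the name table lists as *abcb11* with no letter, had 1129 and 852 counts in crispant libraries, against 330 and 515 counts in wt libraries. In CPM, *abcb11b* stood at 58.8 and 52.9 in crispants, against 21.1 and 28.3 in wt. Crispant libraries of *abcb11b* were far above wt libraries, with a log2 fold change of 1.17 (standard error 0.12), or 2.25 fold.

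*abcb11a* (ENSDARG00000011573) had 202 and 176 counts in crispant libraries, against 88 and 102 counts in wt libraries. Scaled, *abcb11a* was nearly alike within each group, at 10.5 and 10.9 CPM in crispants, against 5.64 and 5.60 CPM in wt. The log2 fold change of *abcb11a* was 0.93 (standard error 0.23), or 1.91 fold. The difference between the copies' fold changes was not tested.

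*slc10a2*, the sodium-dependent transporter that takes bile salts up from the lumen of the distal intestine in mammals, had 458 and 433 counts in crispant libraries, against 221 and 272 counts in wt libraries. *slc10a2* (ENSDARG00000014916) stood at 23.8 and 26.9 CPM in crispants, against 14.2 and 14.9 CPM in wt. The groups were clearly apart, with a log2 fold change of 0.80 (standard error 0.15), or 1.74 fold.

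Its relative *slc10a1* (ENSDARG00000030588), the uptake transporter of the hepatocyte's blood side in mammals, was scarce. It had 17 and 17 counts in crispant libraries, against 18 and 9 counts in wt libraries. The groups of *slc10a1* overlapped, and its log2 fold change of 0.25 had a standard error of 0.68 and turned to -0.25 without wt replicate 2. The wt libraries of *slc10a1* differed from each other by more than the group means did.

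**Figure D2:**
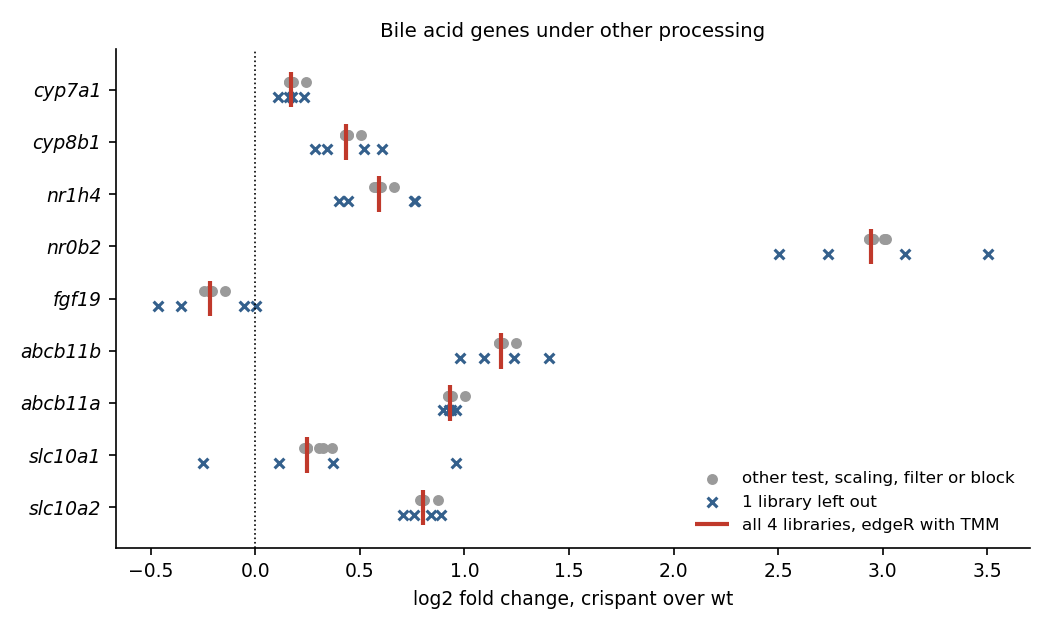
Log2 fold change, crispant over wt, of the 9 bile acid genes above the count filter under each way of processing. Red lines are edgeR with TMM scaling on all 4 libraries, grey points are other tests, scalings, filters or the replicate block, and crosses leave out 1 library each. *nr0b2* spans 2.50 to 3.50 and *abcb11a* 0.897 to 1.004, while *fgf19* and *slc10a1* lie on both sides of 0.

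The rest of the pathway was read from 3 lists of other genes, taken whole and tested with all genes. These genes did not choose the set, but they come from the same libraries, and the lists were drawn up with earlier results known. Of 92 such genes, 89 were tested, 24 rose, 4 fell and 61 did not pass. The 24 of 89 that rose stand beside 8.98% of all genes. The 4 that fell were 4.49%, beside 7.44% of all genes, a difference that rests on few genes and was not tested. With DESeq2, 18 rose and 2 fell, beside 1107 and 1017 of all 20479 genes. The median log2 fold change of the 89 was 0.23, beside 0.0046 over all genes. Of each list, up to 4 genes per direction are named by smallest p. Any further gene of these lists was named after its values were seen.

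Among transporters of bile salts and biliary lipids, 11 of 22 tested genes rose in crispants, beside 8.98% of all genes, 0 fell and 11 did not pass. Hepatocyte and enterocyte markers had larger shares that rose, 67.7% and 72.7%, and the part of those cells in these values was not tested. At an unadjusted p under 0.05, 13 were higher and 0 lower, beside 3048 higher and 2645 lower of all 20479 genes. DESeq2 and limma-voom both called 11 higher and 0 lower. Over all genes DESeq2 called 1107 higher and 1017 lower, and limma-voom 1827 higher and 1581 lower. The median of the transporters was 0.44 on the log2 scale. In mammals *abcb4* moves phosphatidylcholine into bile, and its role in zebrafish was not tested here. *abcb4* stood at 186 and 192 CPM in crispants, against 112 and 107 CPM in wt. It rose by a log2 of 0.79 (standard error 0.08, edgeR adjusted p = 2.06e-13). *abcc2*, the canalicular exporter of conjugated bilirubin and other organic anions, stood at 203 and 201 CPM in crispants, against 128 and 136 CPM in wt, a log2 fold change of 0.61 (standard error 0.07, edgeR adjusted p = 8.06e-10). Both genes lay in the same direction as the hepatocyte and the absorptive enterocyte markers, whose summed CPM had log2 ratios of 0.58 and 0.64. Exocrine pancreas markers lay the other way (-0.60).

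ABCG5 and ABCG8 form a sterol exporter that sends cholesterol into bile and gut lumen, and the transcripts of both subunits were higher. *abcg5* stood at 15.8 and 19.6 CPM in crispants, against 5.32 and 4.72 CPM in wt, and rose by a log2 of 1.82 (standard error 0.21, edgeR adjusted p = 1.23e-10). *abcg8* rose by 1.31 (standard error 0.25, edgeR adjusted p = 5.83e-05). *atp8b1*, a phospholipid flippase of the canalicular membrane that is mutated in a human familial cholestasis, stood at 22.8 and 20.8 CPM in crispants, against 8.71 and 9.66 CPM in wt, a log2 fold change of 1.24 (standard error 0.17, edgeR adjusted p = 4.27e-08). *myo5b*, a motor that carries membrane proteins to the apical surface, rose by 0.80 (edgeR adjusted p = 1.13e-07).

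On the intestinal side, *fabp6*, the ileal bile acid binding protein, stood at 109 and 110 CPM in crispants, against 80.7 and 93.2 CPM in wt. It rose by a log2 of 0.33 (standard error 0.08, edgeR adjusted p = 0.00233). *slc51a*, a subunit of the basolateral bile salt exporter, rose by 0.46 (standard error 0.13, edgeR adjusted p = 0.00717). Both rises are smaller than the values of *slc10a2*, a difference that was not tested. Without wt replicate 1, neither *fabp6* nor *slc51a* passed, with adjusted p of 0.184 and 0.0738 in edgeR. The organic anion transporters *slco1d1* (0.59) and *slco2b1* (0.50) and the basolateral exporter *abcc4* (0.66) rose too, of which *slco2b1* lost its call without wt replicate 1 and *abcc4* without crispant replicate 2. *fabp10a*, the liver-type fatty acid binding protein that also binds bile acids, stood at 346 and 353 CPM in crispants, against 338 and 341 CPM in wt, a log2 fold change of 0.04 (standard error 0.07, edgeR adjusted p = 0.755).

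Among the other synthesis and conjugation enzymes, 7 of 30 rose (23.3%, beside 8.98% of all genes), 1 fell (3.33%, beside 7.44%) and 22 did not pass, with a median log2 fold change of 0.22. DESeq2 called 3 higher and 0 lower, beside 1107 and 1017 of all 20479 genes. The calls of this list thus depended more on the test. In which tissues these enzyme genes rose, and whether bile salt synthesis was involved, was not tested. The clearest rise was in a copy of *papss2* (ENSDARG00000071021), which makes the sulfate donor used to sulfate bile alcohols among other substrates. It stood at 77.5 and 80.3 CPM in crispants, against 43.0 and 43.1 CPM in wt, a log2 fold change of 0.87 (standard error 0.10, edgeR adjusted p = 3.37e-11). The other *papss2* copy (ENSDARG00000056600) rose by 0.51 (standard error 0.16, edgeR adjusted p = 0.0139), and it lost its call with DESeq2 and without crispant replicate 1 or wt replicate 1.

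*csad*, an enzyme of taurine synthesis, stood at 14.2 and 12.4 CPM in crispants, against 5.06 and 6.37 CPM in wt. It rose by a log2 of 1.21 (standard error 0.22, edgeR adjusted p = 1.56e-05). *cyp46a1.4*, a copy of the cholesterol 24-hydroxylase, rose by 1.24 (standard error 0.34, edgeR adjusted p = 0.00600) but did not pass without crispant replicate 1 or wt replicate 2. *cyp7b1*, the oxysterol 7-alpha-hydroxylase of the alternative route, rose by 0.90 (standard error 0.33, edgeR adjusted p = 0.0468), and *ch25h*, the cholesterol 25-hydroxylase, by 1.497 (standard error 0.54, edgeR adjusted p = 0.0442). Neither *cyp7b1* nor *ch25h* passed with DESeq2, with adjusted p of 0.181 and 0.121. *cyp7b1* also lost its call with the replicate block (0.0589) and without crispant replicate 1 or either wt replicate, and *ch25h* with the replicate block (0.0514), with limma-voom (0.0554) and without any 1 of the 4 libraries. The 1 gene that fell was *scp2a*, a peroxisomal thiolase and sterol carrier, at 71.4 and 89.5 CPM in crispants, against 94.9 and 104 CPM in wt. Its log2 fold change was -0.31 (standard error 0.09, edgeR adjusted p = 0.00999), and *scp2a* did not pass with DESeq2 or with library totals alone. It was -0.15 without crispant replicate 1 and -0.24 without wt replicate 2, and passed in neither.

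Values of further enzymes varied. *slc27a2a*, a very long chain acyl-CoA synthetase, rose by 0.30 (standard error 0.09, edgeR adjusted p = 0.0175) and lost its call with DESeq2 and without crispant replicate 2 or wt replicate 2. *amacr*, a racemase of the side chain, had a log2 fold change of 0.63 and *acot8*, a peroxisomal thioesterase, one of 0.51, and neither passed. *hsd3b7*, which follows CYP7A1, had a log2 fold change of 0.04, and *hsd17b4*, of peroxisomal side chain shortening, one of 0.08. The sulfotransferase genes *sult2st1*, *sult2st2* and *sult2st3* had log2 fold changes of -0.01, 0.10 and 0.54, and none of these 3 passed. None of the 4 *cyp27a1* copies, sterol 27-hydroxylases, passed either.

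Of the other receptors and regulators, 6 of 37 tested genes rose (16.2%, beside 8.98% of all genes), 3 fell (8.11%, near the 7.44% of all genes) and 28 did not pass, with a median log2 fold change of 0.10. DESeq2 called 4 higher and 2 lower, beside 1107 and 1017 of all 20479 genes. *klb*, which encodes beta-Klotho, the coreceptor for FGF19, stood at 5.46 and 5.53 CPM in crispants, against 1.28 and 1.70 CPM in wt. It rose by a log2 of 1.87 (standard error 0.38, edgeR adjusted p = 0.000108). *fgfr4*, its partner receptor, stood at 83.5 and 74.6 CPM in crispants, against 69.4 and 77.8 CPM in wt, with overlapping groups and a log2 fold change of 0.10 (standard error 0.09, edgeR adjusted p = 0.504). Of the genes that form the hormone arm in mammals, the coreceptor's transcript was thus higher, while those of *fgf19* and *fgfr4* overlapped between groups. Which tissues made these transcripts in whole larvae was not tested.

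The list also holds factors that drive bile salt genes in liver and gut. *hnf4a*, a regulator of hepatocyte and enterocyte genes, stood at 19.7 and 19.1 CPM in crispants, against 12.1 and 12.2 CPM in wt, a log2 fold change of 0.68 (standard error 0.17, edgeR adjusted p = 0.00194). *nr5a2*, the activator of CYP7A1 that SHP represses in mammals, stood at 18.6 and 18.1 CPM in crispants, against 12.3 and 16.1 CPM in wt, and did not pass (0.36, edgeR adjusted p = 0.139). The genes that fell were *dbpb*, a clock-controlled factor, with a log2 fold change of -0.38 (edgeR adjusted p = 1.80e-05), *nr2f2*, an orphan receptor, with -0.25 (edgeR adjusted p = 0.0228), and a copy of *nr2f1* (ENSDARG00000052695) with -0.24 (edgeR adjusted p = 0.0476). This *nr2f1* copy lost its call with DESeq2, library totals alone, no filter or the replicate block and without any 1 of the 4 libraries, and *nr2f2* with library totals alone and without crispant replicate 1 or either wt replicate.

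**Figure D3:**
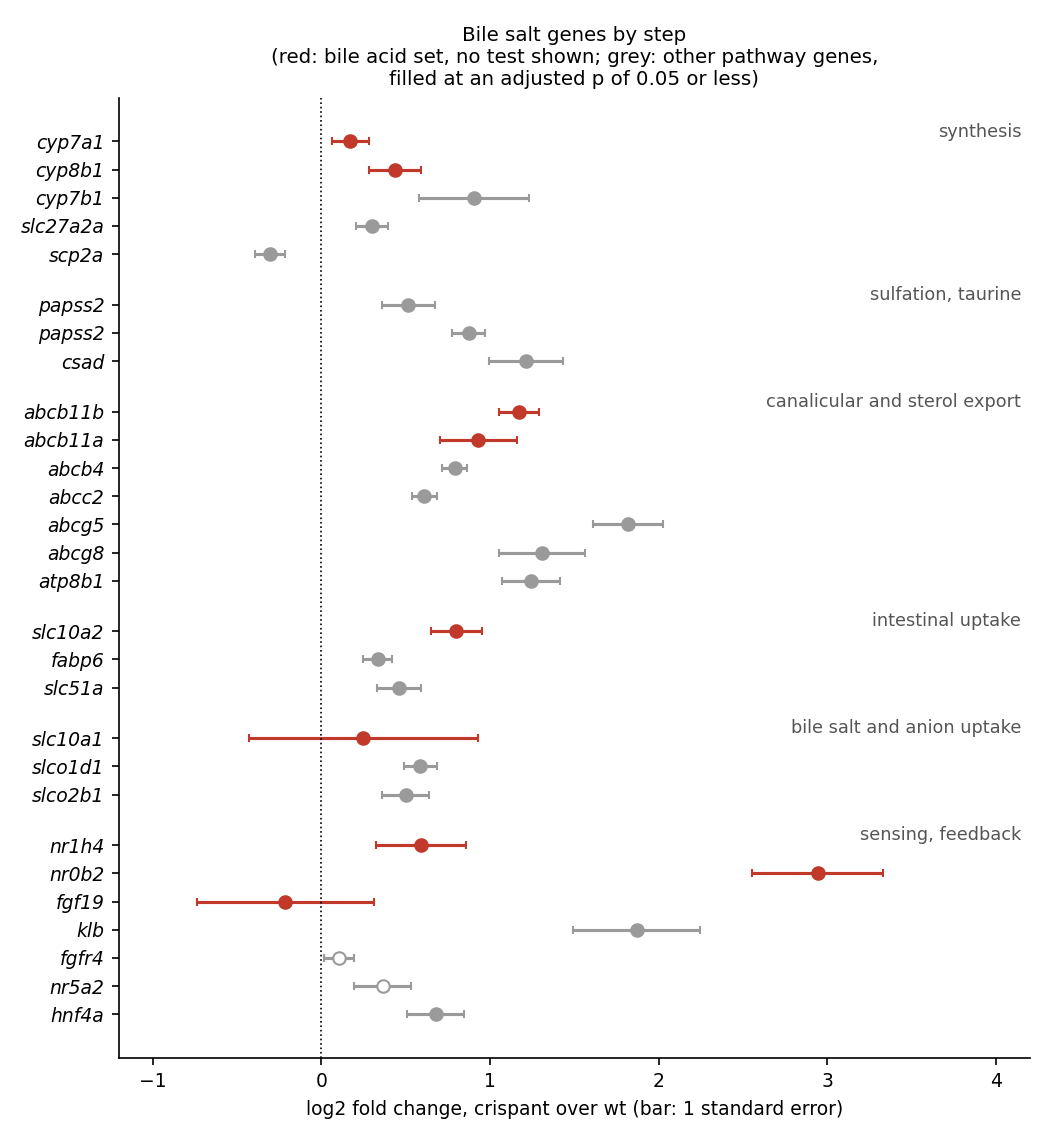
Log2 fold change, crispant over wt, with 1 standard error, for the bile acid set (red) and selected other pathway genes (grey), grouped by step. Filled grey points passed the test, both copies of *papss2* are shown, and the grey genes were picked with their values known. *nr0b2* (2.94) and *klb* (1.87) lie furthest right among the feedback genes, and *cyp7a1* (0.17) and *fgfr4* (0.10) near 0.

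**Figure D4:**
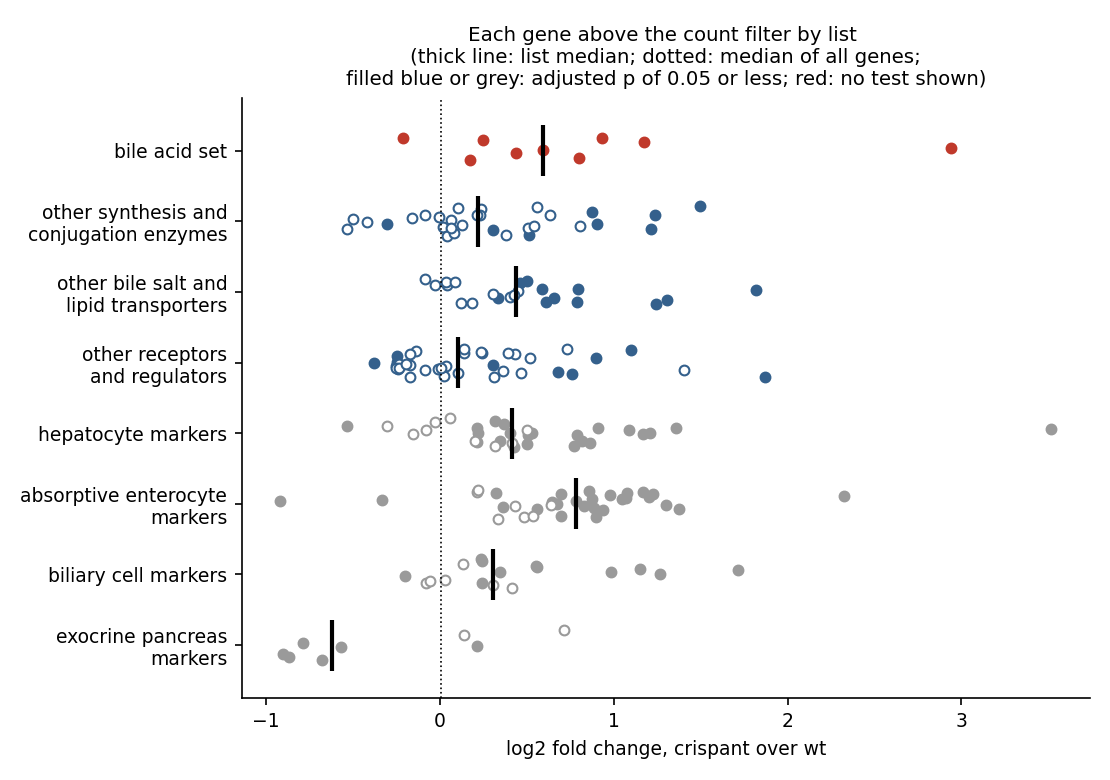
Log2 fold change, crispant over wt, of every gene above the count filter by list, with filled blue or grey points for genes that passed, thick lines at list medians and a dotted line at the median of all genes. Medians are 0.59 for the bile acid set, 0.22 for other enzymes, 0.44 for other transporters, 0.10 for regulators, 0.41 for hepatocyte, 0.78 for enterocyte, 0.31 for biliary and -0.62 for exocrine pancreas markers.

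Hepatocytes and absorptive enterocytes carry most of these steps, and the summed levels of their marker lists were higher in crispants. How specific the genes of either list are to these cells was not tested. The 31 hepatocyte marker genes summed to 7244 and 7305 CPM in crispants, against 4850 and 4861 CPM in wt, a log2 ratio of 0.58. Of these 31, 21 rose (67.7%, beside 8.98% of all genes), 1 fell (3.23%, beside 7.44%) and 9 did not pass. Their median was 0.41 with a range of -0.54 to 3.52. The 9 included *serpina1* (-0.03), *fga* (-0.08), *fgb* (0.06) and *fgg* (-0.15), and *fabp10a* of the transporter list (0.04) did not pass either. All 31 were above the count filter. *apobb.1* alone stood at 1866 and 1709 CPM in crispants, against 786 and 808 CPM in wt, a large part of the rise of the sum. Whole-larva RNA does not tell which tissue made this transcript. *apobb.1*, a lipoprotein scaffold, rose by 1.17 and *tfa*, transferrin, by 1.21, while *hpda*, of tyrosine breakdown, fell by a log2 of 0.54. The 33 absorptive enterocyte marker genes summed to 2812 and 2888 CPM in crispants, against 1808 and 1859 CPM in wt, a log2 ratio of 0.64. Of these, 24 rose (72.7%, beside 8.98% of all genes), 2 fell (6.06%, beside 7.44%) and 7 did not pass. Their median was 0.78 with a range of -0.92 to 2.33, and all were above the count filter. A copy of *slc6a19* (ENSDARG00000018621), an amino acid transporter, rose by 2.33 and a copy of *slc15a1* (ENSDARG00000044528), the peptide transporter, by 1.23, while a copy of *rbp2* fell by 0.92 and *apoa1a* by 0.33.

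The 17 biliary cell marker genes, of which the keratins and *epcam* are also made by skin and gut, summed to 4902 and 5174 CPM in crispants, against 4305 and 4148 CPM in wt. Of these, 10 rose (58.8%, beside 8.98% of all genes) and 1 fell (5.88%, beside 7.44%), with rises of 1.72 in a copy of *pkhd1l1* and 0.98 in *tm4sf4*, and a fall of 0.20 in *krt18b*. The 6 that did not pass were *anxa4*, both *sox9* copies, *jag1b*, *notch3* and *cftr*. How specific the other genes of this list are to ducts, *pkhd1l1* and *tm4sf4* among them, was not tested. The exocrine pancreas markers went the other way, at 2960 and 3219 CPM in crispants, against 4763 and 4595 CPM in wt. Of the 8 tested, 1 rose (a copy of *cpa1*, 0.21), which is 12.5%, beside 8.98% of all genes. Another 5 fell (62.5%, beside 7.44%), *prss1* and *ela2l* with the smallest p, by log2 values of 0.90 and 0.87. The part of these shifts in the values of the bile acid genes was not tested. The hepatocyte range reached 3.52 through *hp*, which had 11 and 15 counts in crispants, against 0 and 2 counts in wt. The next highest hepatocyte marker was *c9* at 1.36. All 9 bile acid genes lay within the hepatocyte range, *nr0b2* (2.94) between *c9* and *hp*, and the rest below *c9*. So wide a range says little about any single gene. The value of *slc10a2* (0.80) is close to the enterocyte median. Whether cell numbers play a part in any of these values was not tested.

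**Figure D5:**
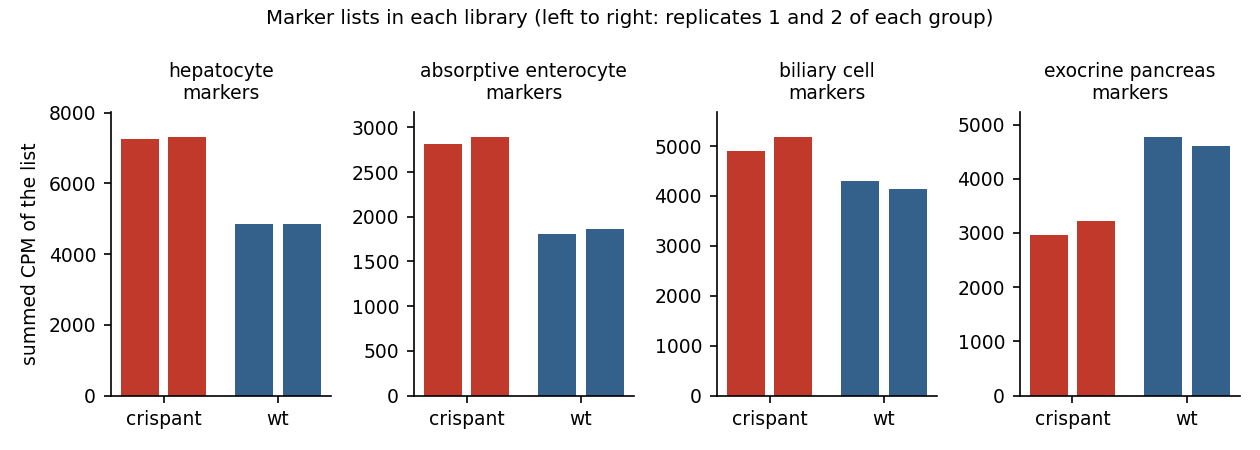
Summed CPM of each marker list in the 4 libraries, as bars from 0, with crispants in red and wt in blue. Both crispant bars are higher than both wt bars for hepatocyte, enterocyte and biliary cell markers and lower for exocrine pancreas markers.

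The genes with the most similar pattern were searched among 17432 named genes, by the root mean square difference of log2 CPM (prior count of 2) centred on each gene's mean over the 4 libraries. Nearest to *nr0b2*, the largest rise of the set, were *igsf5b* at a difference of 0.15, *mslna* (0.25), *grem1* (0.29), *crygm3* (0.29) and *spsb2* (0.31). Their log2 fold changes ran from 2.55 in *mslna* to 4.47 in *igsf5b*, beside 2.94 for *nr0b2*. These fold changes come from the edgeR fit, while the search used log2 CPM with the prior count. At low counts these measures can differ. Nearest to *fgf19*, the only gene of the set above the count filter with a log2 fold change below 0, were *ipp*, *kctd15*, *mto1*, *tprn* and *eif3h*, at differences of 0.021 to 0.030. With 4 libraries, many genes lie close to any such pattern.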

How the data were processed

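RNA-seq of whole larvae at 8 dpf (2 *grwd1* crispant and 2 wt libraries) was analysed, with groups and replicate numbers taken from the sample titles. The deposited table holds raw counts per gene. To make them, the authors used FastQC 0.12.1, MultiQC 1.15, Trimmomatic 0.39, HISAT2 2.2.1 with GRCz11, samtools 1.20 and featureCounts 2.0.6, and they tested genotype with DESeq2. How strand and multiply mapped reads were handled, and which annotation release was used, is not given in the sources used here, so values of similar copies and of overlapping or antisense genes are uncertain.

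The table had 32667 lines, of which 147 exact repeats were dropped, leaving 32520 genes. Symbols came from a name table that matched 29201 genes (89.8%). RefSeq's GRCz12tu gene table was used only for the neighbours of the *cyp8b1* copies. Names not matched were *baat*, *akr1d1*, *acox2*, *slc27a5* and *slc51b*; of the marker names, 27 of 30 hepatocyte, 25 of 27 enterocyte, 15 of 16 biliary and 9 of 14 pancreas names matched.

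Counts were filtered with filterByExpr, scaled with TMM and compared with edgeR 4.0.16 in R 4.3.3 (glmQLFit and glmQLFTest, group only, 4 libraries), with Benjamini-Hochberg adjustment over 20479 genes. The standard error is the log2 fold change divided by the square root of F. The script was tested on simulated data. The lowest and highest library totals were 15916216 and 18619802 counts, and the common biological coefficient of variation was 0.106.

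The genes of the set and the lists were chosen with earlier results of these data known. Named genes are *grwd1*, the whole set, up to 4 genes with the smallest p per direction in each pathway list, up to 2 in each marker list, and the 5 nearest in pattern to the largest rise and the largest fall of the set. Some results under this rule are not reported here. The alternatives were DESeq2 1.42.0, limma-voom (limma 3.58.1), RLE size factors, library totals alone, TMM without the 50 most abundant genes, no filter on low counts, a minimum of 10 counts in each library, the replicate block, an adjusted p of 0.01, and each library left out in turn.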

Additional observations from a re-analysis of the deposited data

How the results depend on the processing

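Over the 13 alternatives, the log2 fold changes of *fgf19* and *slc10a1* took both signs, and those of the other 7 bile acid genes above the count filter stayed above 0. Of the 28 other pathway genes that passed, 14 kept their call in every alternative and 0 of the 28 changed sign. With DESeq2, 2 pathway genes fell, with library totals alone 1, and at an adjusted p of 0.01 2. Leaving out 1 library gave 18 to 20 pathway genes that rose and 1 to 3 that fell. Over all genes, 1107 rose with DESeq2 and 1193 at an adjusted p of 0.01, while 1000 fell with library totals alone and 938 at an adjusted p of 0.01. Leaving out 1 library gave 1266 to 1375 genes that rose and 935 to 1327 that fell, with the low counts of falls, 935 and 1003, when either wt library was left out. The replicate numbers did not pair the libraries (correlation of the replicate differences across 20479 genes, -0.0067). With the replicate block, 1809 genes rose and 1451 fell, and 22 pathway genes rose and 3 fell. Scaling by library totals alone moved the median of all genes to 0.077 on the log2 scale. Depth limits what can be said of *fgf19* and *slc10a1*, and *nr0b2b* and 2 *cyp8b1* copies were too low to fit.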

Other observations

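The receptors for oxysterols, xenobiotics and vitamin D, which also act on bile salt genes in mammals, did not pass the test. *nr1h3*, an oxysterol sensor, stood at 64.8 and 63.0 CPM in crispants, against 50.9 and 57.5 CPM in wt (log2 fold change 0.24, edgeR adjusted p = 0.0857). *nr1i2*, the xenobiotic receptor, had a log2 fold change of 0.31 and a *vdr* copy (ENSDARG00000070721) one of 0.04. *gpbar1*, the membrane bile acid receptor, had 2 and 2 counts in crispants, against 0 and 0 counts in wt, too few to compare. These genes were named after their values were seen.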
